A study of Mus musculus with 20 samples.

Results

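The neonatal course of Tabby footpad skin was followed on 6 of the 20 two-colour oligonucleotide arrays of the series, 2 at postnatal day 1 (P1), 2 at P3 and 2 at P5. They were chosen by their titles alone, and P3 and P5 were set against P1 and P5 against P3. All mice were of the C57BL6/J strain, and Tabby mice carry a mutation of Eda, the gene for ectodysplasin A, without which the eccrine sweat glands of the footpads do not form. The other arrays held wild-type (WT) footpads of the same stages, 2 per stage, and footpads of both genotypes at E17.5 and in adults at P56. Microdissected footpad RNA was labelled with Cy3 and hybridised with a Cy5-labelled reference, a pool of RNA from mouse cell lines with added embryonic stem cell RNA, so that a value is the log2 ratio of footpad over reference. The labels call the replicates biological without naming animals or pools, so p-values measure the spread between these arrays.

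Newborn footpad skin is a thick, hairless epidermis over a dermis that still grows. In the first days of life the epidermis builds its cornified layers, proliferation in the basal layer slows, and the dermis lays down collagen. In normal footpads the sweat glands lengthen and coil into the dermis in the same days, and the coiled part acquires its secretory cells. In Tabby footpads this part is missing, so that the series offers the course of footpad skin without glands. Footpad skin is a mixture of cells, and in such samples fewer cells of a type and less RNA per cell cannot be told apart.

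The array design carries 42006 different probes, each 60 bases long. Between 65.0% and 68.8% of them were well above background in Cy3 on the 6 Tabby arrays. The 29032 probes that were well above background on both arrays of at least 1 of the 6 neonatal groups were tested. The files name probes by Z-number identifiers. An exact match to the first bases of RefSeq genes (GRCm38.p6) gave 178 of them, 0.424%, the name of 1 gene, and 79 of these were tested. The markers of footpad tissue were thus mostly not analysed here, and the results below are mainly about probes. All 4 arrays of a stage lay on 1 slide, so stage and slide cannot be told apart, while the 3 neonatal slides were scanned on the same day. On each slide WT held positions 1 and 2 and Tabby positions 3 and 4, so genotype and position cannot be told apart either. Of all values on the 12 neonatal arrays 15.6% were exactly 0, and 0 of these had a channel well above background, so that a printed value of 0.00 is a dim spot and no measured ratio.

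Sequences are shown for the probes on which the results turn. The first set of 3 is shown because its members overlap and fell together. They cover a stretch of 94 bases, and capitals mark the 26 bases that all 3 hold.
Z00075199-1: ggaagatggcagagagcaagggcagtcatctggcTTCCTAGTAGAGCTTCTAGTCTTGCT
Z00023905-1: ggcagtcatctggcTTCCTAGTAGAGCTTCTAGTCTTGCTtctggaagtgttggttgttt
Z00057869-1: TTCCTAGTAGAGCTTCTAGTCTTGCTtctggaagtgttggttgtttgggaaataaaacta
The next 3 are, by the ratio, the probe with the largest rise from P1, the one with the largest rise from P3 to P5 and the one with the largest fall from P1, in this order and with no part marked.
Z00025250-1: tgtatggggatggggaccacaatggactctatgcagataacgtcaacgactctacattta
Z00039121-1: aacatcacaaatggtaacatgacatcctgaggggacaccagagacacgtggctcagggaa
Z00024658-1: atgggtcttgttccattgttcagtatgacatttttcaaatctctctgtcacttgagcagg
The last 4 are a pair that shares 50 bases and a pair that shares 32, marked by capitals, whose course differed between the genotypes.
Z00025178-1: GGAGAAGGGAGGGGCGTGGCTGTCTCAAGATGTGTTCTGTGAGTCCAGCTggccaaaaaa
Z00064156-1: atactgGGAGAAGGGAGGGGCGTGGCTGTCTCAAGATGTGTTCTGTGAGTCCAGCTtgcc
Z00047655-1: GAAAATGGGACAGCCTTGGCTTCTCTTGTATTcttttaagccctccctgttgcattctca
Z00025964-1: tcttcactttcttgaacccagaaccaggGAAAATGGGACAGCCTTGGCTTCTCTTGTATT

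The 6 Tabby arrays fell into the P1 pair and the 4 later arrays. The SD of the log2 difference over the probes tested was 0.285 to 0.309 between replicates of a stage. It was 0.344 to 0.369 between P3 and P5 arrays, 0.486 to 0.499 between P1 and P3 arrays, and 0.508 to 0.529 between P1 and P5 arrays. The distance from P1 was thus larger than the replicate spread for all 8 pairs of a P1 and a later array.

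**Figure D1:**
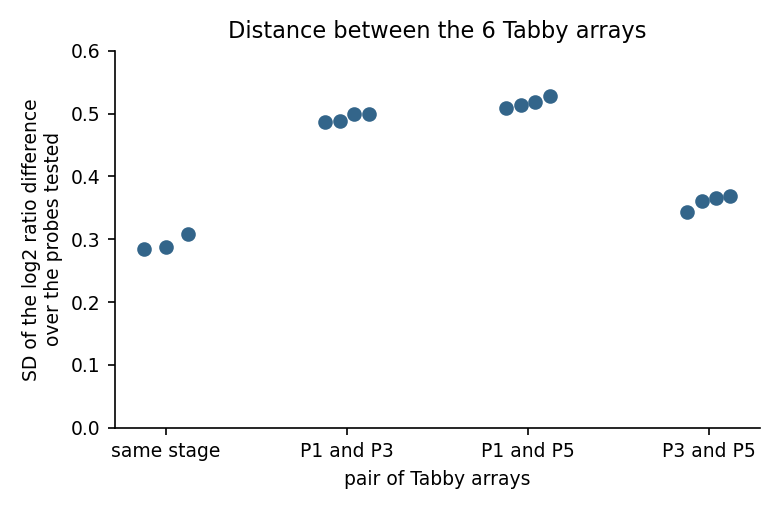
Each point is 1 of the 15 pairs of Tabby arrays, and the vertical axis is the SD of the log2 ratio difference over the probes tested. Pairs of the same stage lie at 0.285 to 0.309, P3 with P5 at 0.344 to 0.369, and P1 with later stages at 0.486 to 0.529.

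Tabby footpads at P3 and P5 differed from P1 in 9278 probes, 32.0% of those tested, at an adjusted p under 0.05 (limma, two-sided, Benjamini-Hochberg). Of these, 4941 (17.0%) were higher, by a median of 1.33-fold, and 4337 (14.9%) were lower, also by a median of 1.33-fold. Most changes were small: 423 probes rose and 430 fell by at least 2-fold, and 50 rose and 70 fell by at least 4-fold. These folds include dim groups, whose ratios are not measured levels. With all 6 Tabby arrays well above background, 224 rose and 284 fell by at least 2-fold, and 12 rose and 28 fell by at least 4-fold. The 4 later arrays did not overlap with the 2 P1 arrays in 14209 probes, 49.0% of those tested, and 8874 of the called probes were among them. Probes and genes named below by their change from P1 were taken only from these 8874. Their lack of overlap with P1 was thus set by the choice. Leaving out 1 P1 array lowered the count to 5716 (without replicate 1) or 5052 (without replicate 2).

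The largest rise of the ratio from P1 was that of Z00025250-1. Its log2 ratio was -2.95 and -1.78 at P1, 0.23 and -0.15 at P3, and 3.54 and 4.08 at P5. The P5 arrays lay above the P3 arrays, and the rule required both to lie apart from P1. The mean of P3 and P5 was above P1 by 4.29 ± 0.40 in log2 (SE, limma adjusted p = 0.00041). Neither P1 array had it well above background, and a bound put the later level at least 2.89-fold higher. Such bounds, here and below, come from the footpad channel. They set the dim group at the lowest signal well above background, or at its own mean signal where that was higher. The footpad channel was first corrected by normexp, adjusted by loess against the reference and scaled between arrays. The bounds thus share steps with the normexp and loess ratio and differ from the Cy3 channel alone. They are open to dye bias because no array had the dyes exchanged.

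The next 3 probes in this order were also well above background on 0 of 2 P1 arrays and on all 4 later ones. Z00036026-1 went from -4.04 and -3.36 at P1 to -0.59 and -0.38 at P3 and 0.41 and 0.32 at P5, a rise that the bound puts at 1.56-fold or more. Z00026713-1 read 0.00 on both P1 arrays, 2.69 and 2.49 at P3, and 4.68 and 4.28 at P5, at least 2.25-fold higher. Z00049973-1 read 0.00 on both P1 arrays, then 2.40 and 2.35, then 4.11 and 4.21, at least 1.38-fold higher. In all 4 probes the P5 arrays lay above the P3 arrays. That the P3 arrays lay above P1 was required by the rule, and the P1 spots were dim. For these 4 the size of the rise depended on the background correction: with normexp and loess in place of the ratio of the scanner software, the log2 changes of 4.29, 3.64, 3.54 and 3.27 became 1.53, 0.79, 1.21 and 0.72, each still past the threshold.

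The largest fall of the ratio was that of Z00024658-1, at 5.13 and 5.19 at P1, -0.89 and -0.99 at P3, and 1.40 and -0.72 at P5. It was well above background on both P1 arrays and on 1 of the 4 later ones, and the P1 arrays lay above all others. The fitted log2 change of -5.46 (limma adjusted p = 0.000722) thus rests on dim later spots. The bound put P1 at least 3.13-fold above P3, where neither array was well above background. With normexp and loess the change was -1.81, smaller than those of the next 3 probes (-3.62, -3.29 and -3.28), so that it led in the ratio only. Outside the neonatal days it was low on the Tabby E17.5 arrays, at -1.78 and -2.04, and high but unequal on the Tabby adult arrays, at 6.17 and 2.74.

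The 3 overlapping probes Z00075199-1, Z00023905-1 and Z00057869-1 held the next places, and since their sequences overlap they count as 1 piece of evidence. Z00075199-1 was at 3.31 and 3.87 at P1, -0.92 and -0.70 at P3, and -2.78 and -2.43 at P5. Z00023905-1 gave 2.65 and 2.90, then -1.13 on both arrays, then -3.42 and -2.81. Z00057869-1 gave 2.64 and 2.97, then -0.94 and -0.92, then -3.51 and -2.86. In each probe the P5 arrays lay below the P3 arrays, and the rule required both to lie apart from P1.

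From P1 to P3, where all 3 were well above background on every Tabby array, they fell by 21-fold, 15-fold and 13.3-fold, with log2 changes of -4.39 ± 0.28, -3.91 ± 0.23 and -3.74 ± 0.22 (SE, limma adjusted p = 0.000232, 0.000215 and 0.000206). At P5 they were well above background on 0 of 2 arrays, and P1 was at least 13.7-fold, 14.9-fold and 15.8-fold above it. In Tabby arrays of E17.5 the same probes stood at 7.09 and 6.90, 3.96 and 3.82, and 3.57 and 3.54, and in adults at -0.56 and -1.36, -1.05 and -2.35, and -0.66 and -1.85. The level was thus high at E17.5 and P1 and low from P3 on. In WT footpads, where all 3 were also well above background at P1 and P3, they fell over the same days by 35.5-fold, 19.8-fold and 13.7-fold (limma adjusted p = 0.000107, 0.000101 and 0.000119).

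**Figure D2:**
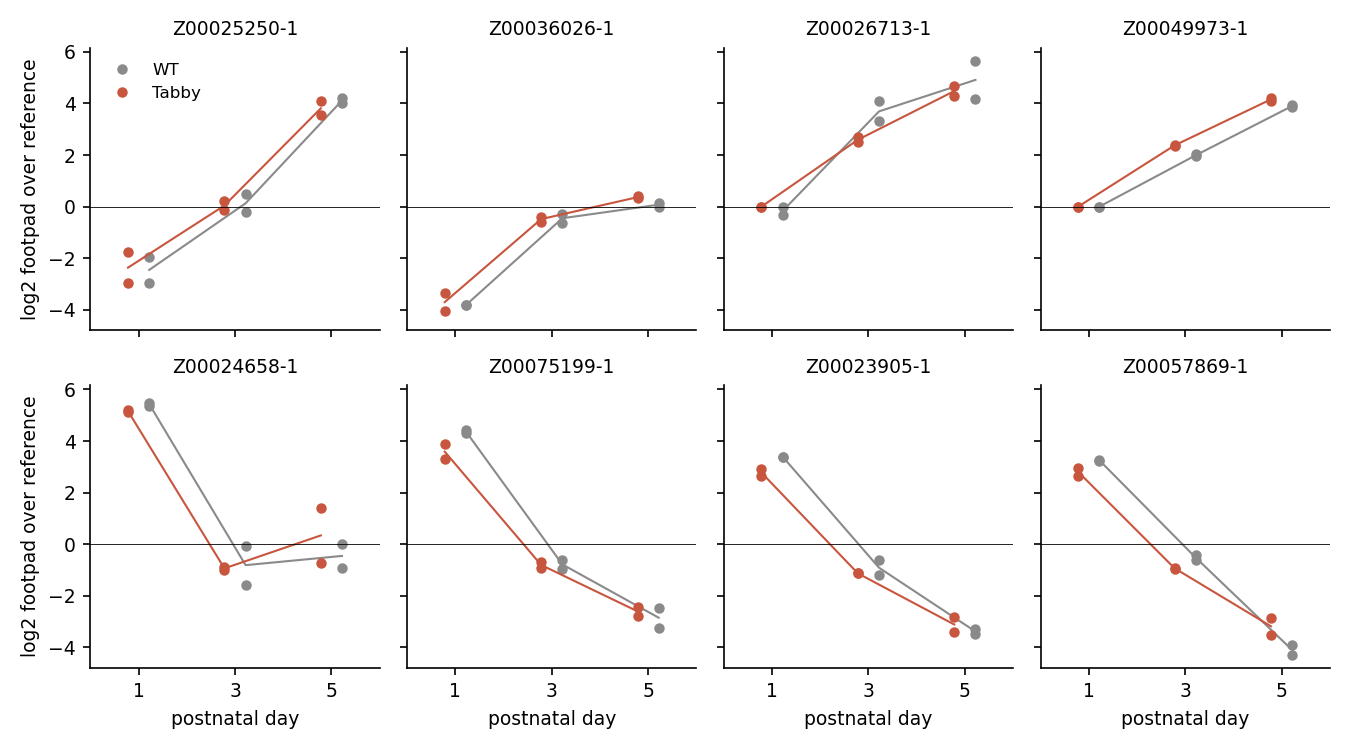
Log2 ratio of footpad over reference at P1, P3 and P5 for the 4 probes that rose most from P1 in Tabby (upper row) and the 4 that fell most (lower row). Red points are single Tabby arrays and grey points WT arrays, lines join the means of 2 arrays, and values of exactly 0 are dim spots. The 3 overlapping probes go from 2.64 to 3.87 at P1 down to -3.51 to -2.43 at P5 in Tabby.

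Genes could be named for 79 of the probes tested, 78 genes in all. Of these 79 probes 9 were higher, 2 lower and 68 not called from P1 to the later stages, 13.9% called against 32.0% of all probes tested, and their median log2 change was -0.01. None of them was called between P5 and P3 or for a difference between genotypes. Such names rest on 20 or more bases at the annotated start of the gene, and near-identical genes, as in the Gstp and histone families, may hybridise to the same probe.

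Gstp1, a glutathione transferase that conjugates reactive compounds, rose. Its probe, which matches the start of the gene at chr19:4037863-4037911 on the minus strand, read -2.85 and -3.03 at P1, -2.12 and -2.28 at P3, and -2.31 and -2.22 at P5. The later arrays were above P1 by 1.63-fold (log2 0.71 ± 0.08, SE, limma adjusted p = 0.000959). Sec61b, a subunit of the channel that passes new proteins into the endoplasmic reticulum (chr4:47474670-47474710, plus strand), read -1.11 and -1.05, then -0.51 and -0.56, then -0.67 and -0.66, a rise of 1.4-fold (adjusted p from limma = 0.00143). Mrps21, a protein of the small subunit of the mitochondrial ribosome (chr3:95871465-95871497, minus strand), read -0.95 and -1.16, then -0.46 and -0.51, then -0.60 and -0.63, a rise of 1.42-fold (0.00115). In these 3 genes most of the rise was in place at P3, and the rule required P3 and P5 not to overlap with P1. On the Tabby E17.5 arrays, of another slide and scan day, all 3 genes stood above P1. These arrays read -1.60 and -1.74 for Gstp1, 0.82 and 0.89 for Sec61b, and -0.54 and -0.66 for Mrps21.

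Cope, the epsilon subunit of the coat of vesicles that return from the Golgi, rose by 1.25-fold (limma adjusted p = 0.0167), from 0.38 and 0.45 at P1 to between 0.65 and 0.81 on the 4 later arrays. The predicted gene Gm46340 rose by 1.31-fold (limma adjusted p = 0.00535), from -1.30 and -1.13 to between -0.94 and -0.76. The Tabby E17.5 arrays lay above P1 for both, at 0.80 and 0.79 for Cope and -0.95 and -0.92 for Gm46340. Cope lost its call without either P1 array (limma adjusted p = 0.105 and 0.0599), and Gm46340 with the Cy3 channel alone (0.059) and with all 20 arrays in the fit (0.0647).

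The remaining 4 genes that rose did not keep their call with normexp and loess. Olfr521, an olfactory receptor gene, had a log2 change of 0.78, and this became 0.13 (limma adjusted p = 0.178). Kif22, a chromosome-bound kinesin of dividing cells, changed by 0.65, or 0.08 (0.515). Mterf1a, a mitochondrial transcription termination factor, changed by 0.49, or 0.10 (0.311). Taldo1, an enzyme of the pentose phosphate pathway, changed by 0.48, or 0.26 (0.0509). All 4 also lost their call without single Tabby arrays, with adjusted p from 0.0599 to 0.302: Olfr521 without P1 replicate 1, P3 replicate 1 or either P5 array, Kif22 without either P1 array, Mterf1a without either P1 array or P3 replicate 2, and Taldo1 without either P1 array, P3 replicate 1 or P5 replicate 2. The change of Olfr521 turned to -0.033 when the Cy3 channel alone was used. The Tabby E17.5 arrays lay above P1 for Kif22, Mterf1a and Taldo1 and below P1 for Olfr521.

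Of the 2 genes that fell, Crxos, a gene on the opposite strand of the homeobox gene Crx (chr7:15896127-15896173, plus strand), read 0.73 and 0.75 at P1, 0.05 and 0.18 at P3, and 0.11 and 0.13 at P5. It fell by 0.62 on the log2 scale (SE 0.05, limma adjusted p = 0.000259), and the rule required its P1 arrays to lie apart from all later ones. The Tabby E17.5 arrays lay below P1 in both genes that fell, at -0.88 and -0.91 for Crxos and -1.44 and -1.20 for H4c8. H4c8, one of the histone H4 genes that are transcribed in dividing cells (chr13:23531068-23531093, plus strand), read -0.41 and -0.42, then -0.68 and -0.48, then -0.79 and -0.93. It fell by 0.30 (SE 0.07, limma adjusted p = 0.0175), by 0.18 with normexp and loess (0.0482), and by 0.066 with the Cy3 channel alone, where it was not called (0.664), and the call was lost without either P1 array (0.0861 and 0.0849).

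Histone genes other than H4c8 were not called: H2bc7 changed by 0.11, H2bc11 by 0.13, H2ac18 by -0.05 and H3f3a by -0.19 in log2. The same held for genes of the cytosolic ribosome, with changes of -0.07 for Rpl10a, -0.16 for Rpl26 and -0.10 for each of both probes of Fau. Rps27l changed by 0.23 (limma adjusted p = 0.0968) and Rps27rt by -0.38 (0.105), so that members of this group differed in sign. Prdx1, a peroxidase, changed by 0.29 (limma adjusted p = 0.0971, or 0.0404 with normexp and loess), and Actg1, cytoplasmic gamma actin, by -0.02. From the lists of cell type and pathway genes, only 2 had a probe with a name. Acta2, the actin of smooth muscle and pericytes, read 0.04 and -0.05 at P1, 0.64 and 0.32 at P3, and 0.71 and 0.39 at P5. Its change of 0.52 ± 0.25 (SE) did not pass (limma adjusted p = 0.146), although the later arrays lay above P1, and it passed with the Cy3 channel alone (0.0153) and with only the 6 Tabby arrays in the fit (0.0449). With normexp and loess its change was 0.09 (0.375). Retn, an adipocyte hormone, was dim, and its change of -0.18 did not pass (0.612). Its direction was not stable, at 0.09 with normexp and loess, 0.47 with the Cy3 channel alone, 0.017 without P1 replicate 2 (none of these called), and -0.43 in the deposited value table, where it passed (0.0273).

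Taken one stage at a time, P3 differed from P1 in 7804 probes (26.9% of those tested), with 4306 higher (14.8%) and 3498 lower (12%). P5 differed from P1 in 7563 (26.1%), with 3894 higher (13.4%) and 3669 lower (12.6%). Both comparisons use the same P1 arrays, so their likeness is not independent evidence. The median absolute log2 change over all probes tested was 0.21 in both. The counts fell by more than 1.5 times without an array of the groups compared: for P3 to 5072 and 4308 without P1 replicates 1 and 2 and to 4318 and 4518 without P3 replicates 1 and 2, and for P5 to 4688 and 4222 without P1 replicates 1 and 2 and to 3897 and 3681 without P5 replicates 1 and 2.

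P5 differed from P3 in 721 probes, 2.48% of those tested, with 381 higher (1.31%) and 340 lower (1.17%). The median absolute log2 change over all probes was 0.13. Of the higher probes 80 rose at least 2-fold and 19 at least 4-fold, and of the lower probes 23 fell at least 2-fold and 3 at least 4-fold. With all 4 arrays of P3 and P5 well above background these counts were 63, 10, 11 and 1. All 721 had P5 arrays that did not overlap with the P3 arrays, which held for 56.1% of the probes tested. The count rested on single arrays: it was 28 and 11 without P5 replicates 1 and 2, 35 and 69 without P3 replicates 1 and 2, 406 without either P1 array, and 7 with only the 6 Tabby arrays in the fit. With the Cy3 channel alone 651 probes passed, 69.4% of them higher, against 52.8% with the ratio.

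**Figure D3:**
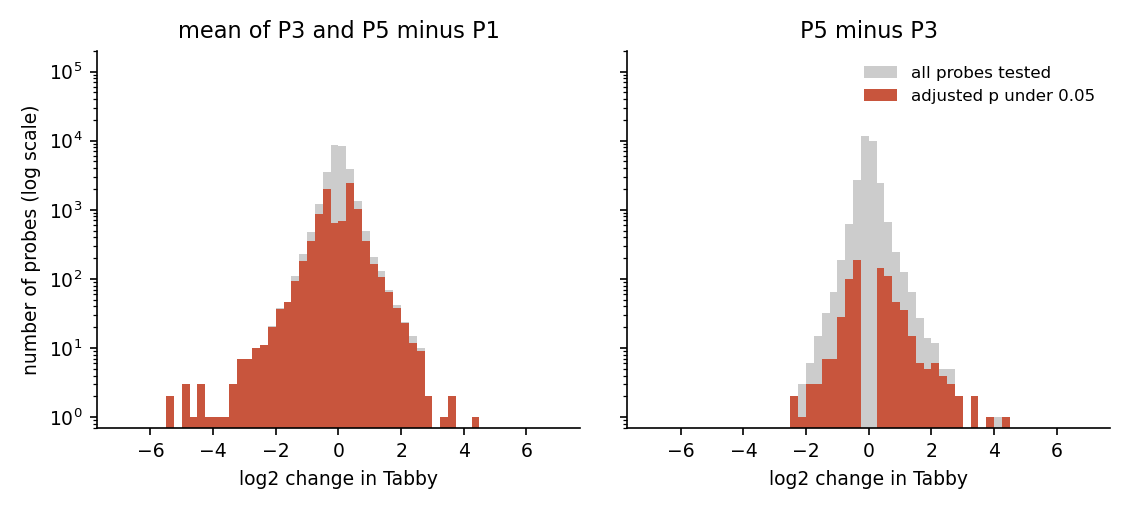
Number of probes (log axis) by log2 change in Tabby, for the mean of P3 and P5 minus P1 (left) and P5 minus P3 (right). Grey bars are all 29032 probes tested and red bars the 9278 and 721 probes with an adjusted p under 0.05.

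The largest rise between these days was that of Z00039121-1. It read 0.00 on both P1 arrays, 0.00 and -0.24 at P3, and 4.84 and 3.85 at P5. It was well above background on the 2 P5 arrays and none of the other 4 Tabby arrays, and at P5 it was at least 3.49-fold higher than at P3 (limma adjusted p = 0.00727). The Tabby adult arrays read 7.31 and 7.27. The call was kept without each single array and lost with only the 6 Tabby arrays in the fit (limma adjusted p = 0.082).

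Z00025250-1, the leading probe from P1, came next, with a rise from P3 to P5 of 3.77 ± 0.46 (SE, limma adjusted p = 0.0144), and it was well above background on all 4 arrays. Z00025251-1 read 1.25 and 0.46 at P1, 0.00 on both P3 arrays, and 3.43 and 3.29 at P5, with a bound of at least 1.32-fold over P3. Its adult arrays in Tabby both read 0.00 again, so that the P5 pair was the highest of the 10 Tabby arrays. Z00025497-1 was at -2.14 and -1.97, then -1.20 and -1.19, then 2.00 and 2.13, at least 2.1-fold higher at P5 than P3, and stood at 6.27 and 6.23 in Tabby adults. These last 3 probes lost their call without any 1 of the 4 arrays of P3 and P5 (limma adjusted p = 0.0514 to 0.103). With normexp and loess the log2 rises of Z00039121-1, Z00025251-1 and Z00025497-1 were smaller, at 1.86, 0.58 and 1.13 in place of 4.46, 3.36 and 3.26, and each was still called.

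Among the falls from P3 to P5 were 2 of the overlapping probes, Z00057869-1 and Z00023905-1, at least 1.44-fold and 1.37-fold lower at P5. With normexp and loess their log2 changes of -2.25 and -1.98 became -0.63 and -0.53, still called, and the calls were lost without P3 replicate 1 for both (limma adjusted p = 0.0602 and 0.0813) and, for Z00023905-1, without P3 replicate 2 or P5 replicate 1 as well (0.0566 and 0.0601). Both were also lost with only the 6 Tabby arrays in the fit (0.082), as were those of Z00025250-1, Z00025251-1, Z00043709-1 and Z00025024-1. Z00043709-1 read 2.91 and 2.34 at P1, 2.31 and 2.28 at P3, and 0.00 and 0.12 at P5, at least 1.07-fold lower, and its call was lost without any 1 of the 4 arrays of P3 and P5 and with normexp and loess (limma adjusted p = 0.0805). Z00025024-1 had the largest fall in the ratio, from 4.85 and 4.65 at P3 to 2.79 and 2.00 at P5, after 1.96 and 1.80 at P1. Its direction turned with the Cy3 channel alone, where P5 was above P3 by 0.48 (limma adjusted p = 0.213), and with normexp and loess the change was -0.15 (0.669).

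Arrays of other stages, which had no part in choosing these probes, were set beside the 2 steps. Among the 381 probes higher at P5 than P3, both Tabby adult arrays lay above both Tabby E17.5 arrays in 317 (83.2%), against 45.7% of all probes tested. Among the 340 lower at P5 than P3, the adult arrays lay below in 302 (88.8%), against 40.9%. The 4941 probes that rose from P1 showed no such tilt, with adult above E17.5 in 43.3% and below in 43.7%. Of the 4337 that fell from P1, adult was above in 41.2% and below in 47.9%.

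The P3 to P5 step thus ran in the direction of the E17.5 to adult difference for most of its probes, while the P1 step did not. The E17.5 and the adult arrays each had their own slide and scan day, so that difference cannot be told apart from these. The median level of the probes that rose from P1 went from -0.36 (E17.5) to -0.55 (P1), -0.10 (P3), -0.13 (P5) and -0.37 (adults). For those that fell it was 0.37, 0.48, 0.03, 0.02 and 0.12. P1 was the lowest of the 5 Tabby stages in 1721 of the 4941 risers (34.8%), against 12.6% of all probes, but the P1 arrays had chosen them. The WT arrays entered the choice only through the detection filter and the estimate of the spread. In WT, P1 was the lowest stage in 1593 of these risers (32.2%), against 12% of all probes. WT and Tabby P1 arrays shared a slide, and the part of the slide in this was not tested.

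**Figure D4:**
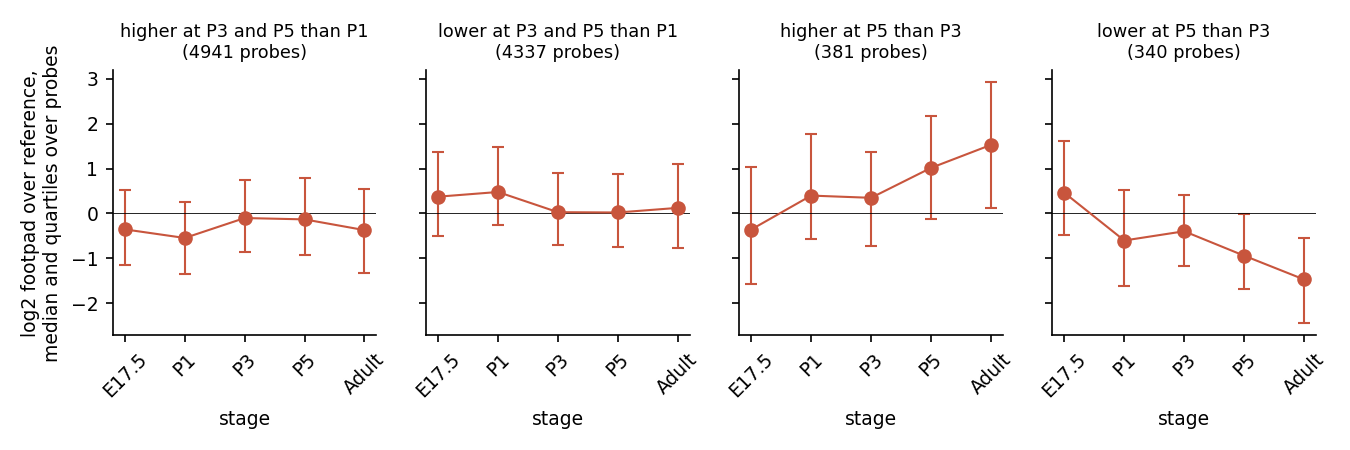
Median and quartiles over probes of the log2 ratio in Tabby footpads at 5 stages, for the probes called between P3 and P5 and P1 (left pair) and between P5 and P3 (right pair). The 381 probes higher at P5 have a median of -0.36 at E17.5 and 1.53 in adults, and the 340 lower ones of 0.46 and -1.47.

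The reference channel on its own was called in 144 probes (0.496%) from P1 to the later stages and in 12 from P3 to P5. From P1 the SD of the change over probes was 0.24 in that channel and 0.43 in the ratio. From P3 to P5 it was 0.26 and 0.30, so few calls do not mean a steady reference. The Cy3 channel on its own was called in 7877 probes from P1, and 6412 of the 9278 ratio calls were made in the same direction there and 4 in the opposite one. Cy3 is part of the ratio, so these calls are not independent. Pairs of probes that share at least 30 bases were also compared. Of 268 such pairs with a call from P1, 263 changed in the same direction, 187 had both probes called and 0 had opposite calls. Shared bases, RNA and slides build in part of this likeness, and it cannot tell stage from slide. Called probes were brighter than the others, with a median log2 Cy3 signal of 10.7 against 9.56. The median GC content was 43.3% for the probes that fell and 45% for the rest. The hexamer AATAAA, the commonest polyadenylation signal, was searched on the printed strand and stood in 8.32% of the probes that fell, 7.59% of those that rose and 7.63% of all probes tested.

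Some probes crossed the limit of detection. From 0 of 2 P1 arrays to all 4 later arrays, 160 probes became well above background, of which 84 were called higher. In the other direction, 87 probes went from both P1 arrays to none of the later ones, and 58 of these were called lower. The direction of these calls follows from the switch, and over all probes tested 17.0% were called higher and 14.9% lower.

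The WT arrays of the same slides ask whether footpads with and without glands took the same course. Of the 9278 probes called in Tabby, 9090 (98.0%) had the same sign of change in WT, against 82.1% of all probes. The median change was 0.42 in both genotypes for the risers and -0.41 in both for the fallers. Both genotypes of a stage lay on the same slide, so a shared course and a shared slide effect cannot be told apart here. For the step from P3 to P5, 681 of 721 had the same sign (94.5%, against 64.7% of all probes), with medians of 0.57 in Tabby and 0.43 in WT for the higher probes and -0.47 and -0.30 for the lower ones, values that favour Tabby because the probes were chosen there.

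The change from P1 to the later stages differed between the genotypes in 59 probes, 0.203% of those tested (limma, genotype by stage). In 56 of them (0.193% of the probes tested) the change was more negative in Tabby and in 3 (0.0103%) more positive. The smaller side depended on the arrays: 14 of 51 were more positive without WT P1 replicate 1, 18 of 92 without WT P1 replicate 2, and 11 of 117 with normexp and loess. The WT change was above 0 in 54 of these 56 and was called in 52, with a median of 1.68 in log2, while the Tabby median was -0.05. In Tabby 32 of the 56 were not called, 15 were called lower and 9 higher, and 15 were well above background on none of the 6 Tabby arrays. Most of these probes thus rose after P1 in WT and were not called higher in Tabby. The 15 dim ones could be tested only through WT. They gave no Tabby level, and they are part of the Tabby median of -0.05.

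The overlapping pair Z00025178-1 and Z00064156-1 was among them. In Tabby Z00025178-1 read -3.69 and -3.74 at P1, -3.97 and -3.81 at P3, and -4.14 and -3.79 at P5, and in WT -3.79 and -3.89, then -1.89 and -2.16, then 0.80 and 0.46. The Tabby arrays stayed within 0.5 of each other, while the WT arrays climbed at each stage. The difference of the changes was -3.35 ± 0.19 (SE, limma adjusted p = 0.000423), and it kept its call under every alternative run. Its partner Z00064156-1 went from -3.47 and -3.43 to -3.65 and -3.66 in Tabby and from -3.41 and -3.68 to 1.16 and 0.74 in WT between P1 and P5, with a difference of -3.35 ± 0.24 (limma adjusted p = 0.00142).

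The ratios of the other 3 probes named on this side fell in Tabby. Z00024865-1 went from 3.08 and 2.10 at P1 to 1.11 and 0.58 at P3 and 2.06 and 1.91 at P5, while WT went from 1.90 and 1.62 to 4.54 and 4.45 and to 5.14 and 5.03. Z00043839-1 went from 1.67 and 1.46 to -2.16 and -2.22 and a P5 mean of -0.75 ± 0.35 (SD, n = 2) in Tabby, where it was well above background at P1 alone, and from 2.38 and 2.58 to 1.84 and 1.42 and to 3.10 and 2.98 in WT. WT was at least 3.19-fold above Tabby at P5. Z00066243-1 went from 1.05 and 0.90 to 0.49 and 0.03 and to 0.42 and 0.23 in Tabby, and from 0.02 on both arrays to 0.37 and 1.05 and to 3.27 and 3.20 in WT. It was well above background on 0 of 2 WT P1 arrays and on 1 of 2 Tabby P1 arrays, so its difference rests on dim P1 spots. In Tabby the footpad channel used for its bound averaged 6.45 at P1, 6.37 at P3 and 6.47 at P5 in log2. The bound put WT P5 at least 6.3-fold above WT P1. In the first and the last of these WT rose while the Tabby ratio fell, and in Z00043839-1 WT fell to P3 and stood above P1 at P5. The 3 had differences of -4.20 ± 0.36, -2.89 ± 0.23 and -2.64 ± 0.27 (SE, limma adjusted p = 0.00446, 0.00265 and 0.0107). With normexp and loess those of Z00043839-1 and Z00066243-1 were -0.87 and -1.37, still called.

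The 4 largest differences were outside the naming rule, because their Tabby arrays of P1 and the later stages overlapped, and they were chosen after their values were seen. Z00047655-1 read -0.20 and -0.31 at P1, -0.41 and -0.35 at P3, and 0.88 and 1.08 at P5 in Tabby, and -0.18 and -0.16, then 5.07 and 4.93, then 6.50 and 6.34 in WT. The WT rise was 59.0-fold and the Tabby one 1.47-fold. Its partner Z00025964-1 went from -0.34 and -0.23 at P1 to 2.41 and 2.78 at P5 in Tabby and from 0.17 on both arrays to 6.13 and 6.02 in WT. Z00050873-1 went from 0.90 and 0.47 to 2.16 and 2.08 in Tabby and from 0.12 and 0.68 to 6.06 and 5.97 in WT over the same days. In these 3 the Tabby arrays of P5 lay above those of P1, so that Tabby rose as well, by less.

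Z00059934-1 and Z00053387-1 were well above background on 0 of the 6 Tabby arrays. In WT they went from 0.00 and 0.33 and from 0.00 on both arrays at P1 to 4.99 and 4.61 and to 6.49 and 6.27 at P5, and WT was at least 12.3-fold and 4.53-fold above Tabby there. With normexp and loess their differences of -4.53 and -4.38 were -2.58 and -1.22, still called. Differences from P1 rested on the arrays in the fit. With all 20 arrays the calls of Z00024865-1 (limma adjusted p = 0.696), Z00043839-1 (0.173), Z00047655-1 (0.134), Z00050873-1 (0.368), Z00059934-1 (0.0885) and Z00053387-1 (0.0905) were lost at the same differences. Among the added arrays, the WT E17.5 replicates read -0.92 and 3.24, -1.07 and -0.49, and -1.18 and 2.87 for the first 3. For the last 3 they read -0.10 and 3.73, 0.00 and 2.13, and -1.39 and 0.71, and the cause of the lost calls was not tested. Z00066243-1 lost its call without WT P1 replicate 1 or either Tabby P1 array (0.0534 to 0.078).

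Of the 3 probes that changed more positively in Tabby than in WT, 2 were named by the rule. Z00066358-1 went from 1.77 and 1.56 at P1 to between 1.88 and 2.29 on the later Tabby arrays, and from 2.62 and 3.01 to between 1.70 and 1.94 in WT. Z00072860-1 went from 4.60 and 4.11 at P1 to 0.00 on both P3 arrays and back to 2.41 and 2.49 at P5 in Tabby, while in WT it went from 4.50 and 4.58 to 0.00 on all 4 later arrays. Their differences were 1.46 ± 0.19 and 1.41 ± 0.17 (SE, limma adjusted p = 0.0365 and 0.0225), and each lost its call in 17 of 21 alternatives. The last, Z00033696-1, named after its values were seen, fell by 0.59 in Tabby and by 1.78 in WT (difference 1.19, limma adjusted p = 0.0349). The count of 59 was 32 without Tabby P1 replicate 1, 92 without WT P1 replicate 2, 35 without WT P3 replicate 1, 36 without WT P5 replicate 1 and 39 without Tabby P5 replicate 1.

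The step from P3 to P5 differed between the genotypes in 42 probes (0.145%), and it was more negative in Tabby in 39 (0.134%) and more positive in 3 (0.0103%). With the Cy3 channel alone 52 passed, 21.2% of them more positive in Tabby, against 7.14% with the ratio. The count was 27 without Tabby P3 replicate 2 and without WT P5 replicate 1, and 25 without Tabby P5 replicate 2. Among the probes named above, Z00053387-1 (difference -4.01, limma adjusted p = 2.75e-06), Z00025178-1 (-2.73, 0.00307), Z00066243-1 (-2.46, 0.0401) and Z00072860-1 (2.45, 0.00274) were called in this step.

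**Figure D5:**
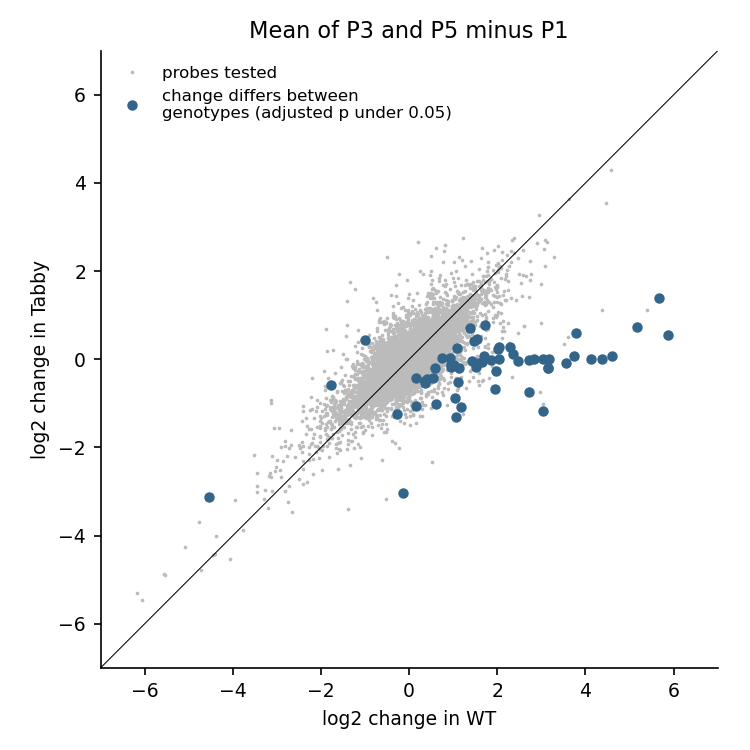
Log2 change from P1 to the mean of P3 and P5 in WT (horizontal) and Tabby (vertical) for the 29032 probes tested, with the line of equal change. The 59 blue probes differ between the genotypes at an adjusted p under 0.05, and 56 of them lie below the line.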

How the data were processed

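Footpad RNA was measured on 20 arrays. Scans were quantified by Agilent Feature Extraction 9.5.1.1, per the file headers. The deposited files hold an intensity per dye and a ratio of reference over footpad on the log10 scale. Its sign was turned and it was put in log2, values with an outlier mark were dropped, and repeated spots were averaged. The deposited value table (25030 probes, log10 scale, direction and centring not given in the sources used here) followed footpad over reference plus a constant for 64.4% of its probes within 0.001; its column medians were 2.53 to 2.59. The members and lists were chosen with earlier results of these data known.

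The 12 neonatal arrays were fitted with limma 3.58.1 in R 4.3.3 (6 residual and 1.94 prior degrees of freedom, prior SD 0.096), a coefficient per group. The embryonic and adult arrays were left out of this fit because earlier results of these data gave a larger replicate spread there. In each comparison and direction the rule named up to 10 genes and the 4 unnamed probes with the largest change, among called probes whose Tabby arrays did not overlap, and any member of the cell type and pathway lists. Alternatives were normexp with loess, the value table, the Cy3 channel alone, median centring, other sets of arrays, other filters on dim probes, another prior, array weights, the replicate block and leaving out each array. The number of arrays limits the precision. In simulations of the change from P1 (200 of 29032 probes changed) the calls held 62.5% of the changed probes at 1.5-fold, 83% at 2-fold and 99.5% at 4-fold. These had normal noise without slide effects or values of exactly 0, and far fewer changed probes than the 32.0% called in the data. The rates thus do not carry over to the data.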

Additional observations from a re-analysis of the deposited data

Results flagged for a closer look

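The difference between genotypes in the change from P1 to the mean of P3 and P5 was tested as an interaction in limma, and it passed the threshold in 59 probes, while 42 passed for the change from P3 to P5. The probes named for the first of these are given here because their course differs between Tabby and WT, with the log2 difference of the change, Tabby minus WT. It was 1.46 for Z00066358-1 and 1.41 for Z00072860-1, which fell less in Tabby or rose there. It was -4.20 for Z00024865-1, -3.35 for Z00025178-1, -2.89 for Z00043839-1 and -2.64 for Z00066243-1. Among the probes chosen after their values were seen it was -5.33 for Z00047655-1, -4.53 for Z00059934-1, -4.43 for Z00050873-1 and -4.38 for Z00053387-1. Values of exactly 0 carry no spread, so the standard errors of Z00053387-1, with 0.00 on 6 of 6 Tabby arrays, and of Z00072860-1 leave out the error of the dim arrays. The same holds in part for Z00059934-1, Z00049973-1, Z00026713-1, Z00039121-1 and Z00025251-1, which also had pairs of Tabby arrays at 0.00. Groups of 2 arrays are too small to test for a single array that stands apart.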

How the results depend on the processing

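The counts for P3 and P5 against P1, for P3 against P1 and for P5 against P1 stayed within 1.5 times of the reported ones in every alternative other than leaving out an array. The count for P5 against P3 was 1820 with normexp and loess, 327 with all 20 arrays in the fit, 7 with only the 6 Tabby arrays, 1551 with a prior spread following the Cy3 signal, 2148 with array weights and 190 with the replicate block. For genotype by stage from P1 it was 117 with normexp and loess, 32 with all 20 arrays, 23 with array weights and 35 with the replicate block, and for genotype by stage from P3 to P5 it was 85 with normexp and loess and 24 with only probes well above background on all 12 arrays. The causes were not tested. Leaving out 1 array in turn gave 5052 to 7514 for P3 and P5 against P1, 4308 to 6857 for P3, 3681 to 6716 for P5, 11 to 406 for P5 against P3, and 32 to 92 and 25 to 39 for genotype by stage; an array left alone in its group was assumed to vary like the others. The change of Z00044672-1 (Olfr521) became -0.033 and that of Z00025024-1 0.48 with the Cy3 channel alone, and the change of Retn, not called, turned sign in 3 alternatives. Same-numbered arrays of a genotype held the same position on each slide. Their deviations correlated at 0.0961 to 0.13 in Tabby and 0.0374 to 0.1 in WT, above 0 for all 6 pairs of stages. The part of the position in this was not tested. The block changed the count of P3 and P5 against P1 to 8976. Depth is not defined for arrays, and probes near background have bounds only.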
